A study of Mus musculus with 2 samples.

Results

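Smpdl3a, Rnf145, Tmem135, Myo5c and Ctsl are 5 mouse genes that have been reported as targets of the liver X receptors (LXR) but are seldom used to read out LXR activity. They were taken by symbol from a deposited table of 36808 genes, and each symbol matched 1 row. The table holds RNA sequencing of primary hepatocytes, liver parenchymal cells isolated from C57Bl6 mice and cultured with serum, insulin and dexamethasone. One culture received 1 µM GW3965, a synthetic LXR agonist, and the other received DMSO, its solvent. Each group had 1 library, so no difference has a replicate check, and any other difference between the cultures cannot be told apart from the ligand. In the table the second library is called GL. It was taken for GW3965, the agent the labels name, and that reading is not certain.

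LXRα and LXRβ are nuclear receptors that bind DNA as pairs with the retinoid X receptor and are activated by oxysterols. Their usual binding element is a DR4, that is, 2 direct repeats of the half-site AGGTCA with 4 bases between them. In liver they are known for raising sterol export, lipogenesis and phospholipid remodelling. The 5 genes encode proteins of different kinds. Rnf145 encodes a ubiquitin ligase of the endoplasmic reticulum, Tmem135 a membrane protein of peroxisomes and mitochondria, Myo5c an actin motor for secretory vesicles, Smpdl3a a secreted phosphodiesterase and Ctsl a lysosomal protease.

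The DNA before the annotated start sites is shown first, because Rnf145 carries there a sequence close to the LXR elements of well-known targets. RefSeq windows on GRCm38.p6, from 250 bases before to 50 after a start, were at hand for 4 of the 5 genes (Rnf145, Tmem135, Myo5c and Ctsl), 6 windows in all. The search allowed up to 3 mismatches in the 12 fixed bases of the DR4, on both strands. Of those 6 windows 1 held such a match, against 21.9% of all 32851 windows. It lay 92 bases before the third annotated start of Rnf145, 1241 bases after the first. In the GENCODE M21 annotation it overlaps no exon and lies inside 3 of the 6 Rnf145 transcripts, hence in an intron of those. The 250 bases before that start (chr11:44520039-44520288, plus strand) read as follows, with the match in capitals.

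Rnf145, the third start: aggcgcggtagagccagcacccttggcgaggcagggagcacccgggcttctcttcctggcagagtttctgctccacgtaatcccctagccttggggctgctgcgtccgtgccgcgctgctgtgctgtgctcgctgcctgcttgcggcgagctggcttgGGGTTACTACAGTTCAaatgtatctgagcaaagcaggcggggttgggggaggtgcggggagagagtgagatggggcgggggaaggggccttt

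The same 16 positions in the windows of Abca1, which exports cholesterol, Fasn, the fatty acid synthase, and Srebf1, a lipogenic transcription factor, are set under it, each read in the sense of the repeat. Capitals mark both half-sites and lower case the 4 bases between them.

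Rnf145 (chr11:44520197-44520212, plus strand): GGGTTActacAGTTCA
Abca1 (chr4:53159947-53159962, plus strand): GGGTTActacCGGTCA
Fasn (chr11:120824757-120824772, plus strand): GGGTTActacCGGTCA
Srebf1 (chr11:60210638-60210653, plus strand): GGGTTActggCGGTCA

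The Rnf145 sequence differed from that of Abca1 at 2 of 16 bases and from that of Srebf1 at 4, and the Abca1 and Fasn sequences were identical. After these sites had been seen, every window was searched for the Abca1 sequence with up to 2 differences. It was found in 6 of 32851 windows (0.0183%), which belong to 5 genes, namely Abca1, Fasn, Srebf1, Rnf145 and the noncoding gene Gm52617. That limit is the distance of the Rnf145 sequence itself. With up to 3 differences it was found in 32 windows (0.0974%) of 29 genes. Other windows of LXR targets held nothing so close. The best DR4 match of Mylip had 5 mismatches and differed from the Abca1 sequence at 11 bases. Those of the first and second Srebf1 windows differed from it at 10 and 11. Each of the Tmem135, Myo5c and Ctsl windows came no closer to the consensus than 4 mismatches. The Myo5c window alone among the 6 held an exact half-site AGGTCA, which 16.3% of all windows held on either strand. A match describes the letters of a window, and binding was not measured in this series.

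Levels were deposited as FPKM, a fragment number that the authors put on a common length and depth, which allows genes of different length to be compared. Ratios with a pseudocount are on the log2 scale, with 1 added to each FPKM before GW3965 is divided by DMSO, which understates differences of low genes. Of the 36808 genes, 11796 reached the minimum used here, an FPKM of 1 in at least 1 library. The spacing of low values places the libraries at about 79000000 fragments for GW3965 and 63600000 for DMSO. Marker genes set beside the cell label came to summed FPKM of 5089 in GW3965 and 6097 in DMSO for 11 hepatocyte markers. The sums were 248 and 249.4 for 12 macrophage markers, 240 and 212 for 10 endothelial markers, 100.003 and 93.6 for 10 stellate or fibroblast markers, and 30.4 and 28.4 for 3 cholangiocyte markers, in GW3965 and DMSO in that order. The lists held 12, 17, 10, 11 and 7 genes, of which the numbers given reached the minimum. A few abundant genes carry such sums. In GW3965 and DMSO, Cd14 had 99.3 and 111 FPKM and Cd68 93.9 and 74.9 of the macrophage sums. Dcn had 65.6 and 64.8 of the stellate or fibroblast sums. Past 1.5-fold, both lower in GW3965, were the hepatocyte marker Ahsg (-0.63) and the sinusoidal endothelial marker Clec4g (-0.66). Over all genes at the minimum, 1.33% were at least 1.5-fold lower and 1.02% higher. The cholangiocyte marker Tff2 was at 0 in both libraries. Above 0 lay 4 of 11 hepatocyte markers (median -0.12) and 4 of 12 macrophage markers (-0.12). So did 8 of 10 endothelial (0.16), 8 of 10 stellate or fibroblast (0.14) and 2 of 3 cholangiocyte markers (0.070). Their part in the ratios below was not tested, and fewer cells of a type and less RNA per cell cannot be told apart in such libraries.

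Rnf145 had the highest ratio of the 5 genes, at 1.93 times its DMSO level in the GW3965 library. Tmem135 was at 1.44 times, Ctsl at 1.099 times, Smpdl3a at 0.883 times and Myo5c at 0.855 times. Of the 4 genes that reached the minimum FPKM, 1 was at least 1.5-fold higher and 0 were at least 1.5-fold lower, with the pseudocount. The background over all 11796 genes was 1.02% higher and 1.33% lower by that rule. Among protein-coding genes alone, a background chosen after the data were seen, it was 0.827% and 0.781%. The median ratio of the 4 genes was 0.32, beside 0.01 over all genes at the minimum, and 3 of the 4 lay above 0, as did 52.9% of all genes. Myo5c missed the minimum.

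**Figure D1:**
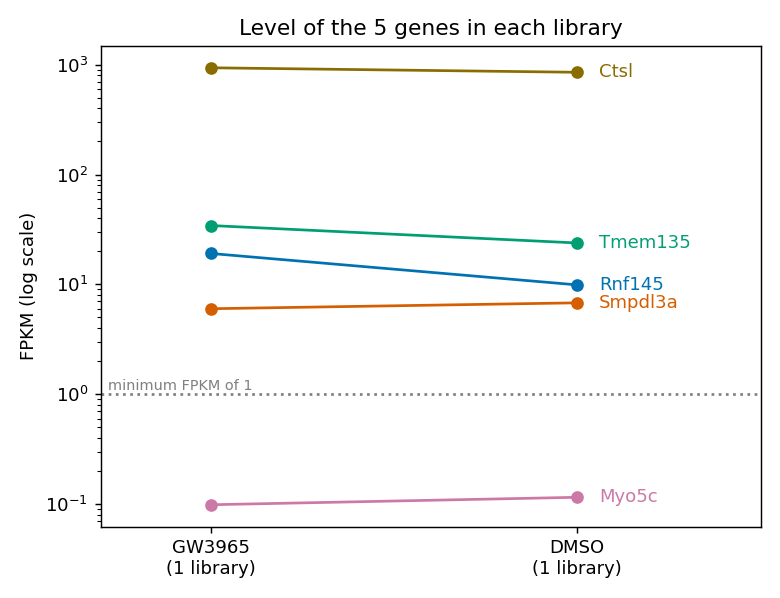
FPKM on a log scale of the 5 genes in the GW3965 library and the DMSO library, 1 point per library joined by a line for each gene, with the minimum of 1 dotted. Ctsl lies at 936 and 852, Myo5c lies under the minimum in both libraries, and the line of Rnf145 is the steepest, with 19.1 in GW3965 and 9.89 in DMSO.

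The levels spread widely. In both libraries the order was Ctsl, Tmem135, Rnf145, Smpdl3a and Myo5c, from high to low. Ctsl exceeded the FPKM of 99.2% of the genes at the minimum in GW3965 and 99.1% in DMSO, and its FPKM was 9487 times that of Myo5c in GW3965 and 7383 times in DMSO. Tmem135 exceeded 79.4% and 71.3% of genes, Rnf145 65.2% and 45.8%, and Smpdl3a 32.3% and 35.2%, with GW3965 given before DMSO. With 1 library per group there is no spread between samples to set against the steps of that order. The narrowest step was that from Rnf145 to Smpdl3a in DMSO.

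Rnf145 (ENSMUSG00000019189, chromosome 11, 44332466 to 44379022, mm9) encodes a multispan RING-type ubiquitin ligase, reported to act on SCAP, the escort protein of SREBP. Its FPKM was 19.1 in GW3965 and 9.89 in DMSO. The ratio with the pseudocount was 0.88, rank 47 from the top of 11796 genes, and the log2 FPKM ratio without it was 0.95. Read numbers estimated from its coding transcripts were 5142 to 6114 fragments in GW3965 and 2142 to 2547 in DMSO. Counting error alone gave a 95% interval of 0.88 to 1.02 for the log2 FPKM ratio, from the exact binomial interval at the shortest coding transcript. The standard error derived from the score in the authors' deposited table was 0.29, and the 95% span from it was 0.39 to 1.51. In the authors' deposited table Rnf145 had p = 0.000963 and q = 0.182 and was not called.

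None of the 5 genes was called in the authors' deposited table, whose test on the reads of these 2 libraries compares the libraries, not the conditions. It called 43 of the 15090 genes it tested (0.285%), with q of at most 0.0470. At an unadjusted p of at most 0.05, the authors' deposited table holds 3.34% of the tested genes, and Rnf145 was the one among the 4 of these genes tested there. Myo5c was marked as not tested.

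**Figure D2:**
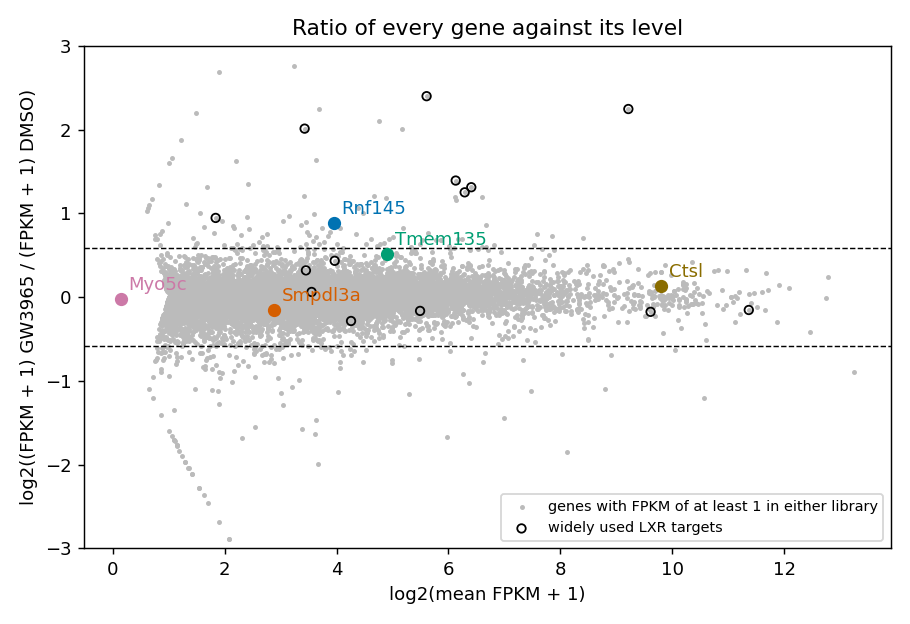
log2 ratio of GW3965 to DMSO, with 1 added to each FPKM, against log2(mean FPKM + 1). Grey points are genes at the minimum FPKM, open circles are widely used LXR targets, and filled points are the 5 genes. Dashed lines mark 1.5-fold, and 10 genes lie beyond the axis at 3. Rnf145 at 0.88 lies over the upper line, Tmem135 at 0.51 just under it, and Smpdl3a and Ctsl lie within the grey band.

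The relatives and partners of Rnf145 differed among themselves. Rnf139, its closest relative among ligases of the endoplasmic reticulum, had 7.20 FPKM in GW3965 and 7.40 in DMSO, a ratio of -0.036. Syvn1, a ligase for misfolded proteins, had 26.0 FPKM in GW3965 and 28.8 in DMSO (-0.14). Of 20 listed genes of such ligases and sterol-regulated turnover, Rnf145 included and all at the minimum, 3 were at least 1.5-fold higher and 0 lower. Over all genes at the minimum these shares were 1.02% and 1.33%, to be set beside each such count below. The list median was 0.058. Besides Rnf145 the higher genes were Insig1 and Mylip. Insig1, which retains SCAP in the endoplasmic reticulum, had 95.5 FPKM in GW3965 and 41.1 in DMSO (1.20). Mylip, a ligase for the LDL receptor, had 3.71 and 1.45 (0.95). Scap, which encodes the reported substrate, had 27.4 FPKM in GW3965 and 28.5 in DMSO (-0.053). These are transcript levels, and the protein was not measured.

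Tmem135 (ENSMUSG00000039428, chromosome 7, 96288233 to 96552732, mm9) has been linked to peroxisomal metabolism and to mitochondrial division. Its FPKM was 34.3 in GW3965 and 23.8 in DMSO. The ratio with the pseudocount was 0.51, rank 162 of 11796, under the 1.5-fold line at 0.58. The log2 FPKM ratio of 0.53 had a counting interval of 0.37 to 0.69 at the shortest coding transcript, from 881 fragments in GW3965 and 492 in DMSO. The derived standard error was 0.30, with a span of -0.052 to 1.11, and in the authors' deposited table Tmem135 had p = 0.0744 and q = 1.00. Counting alone thus placed it above 0, and the wider error reached 0.

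With 1 added to each FPKM, the listed genes of the organelles that Tmem135 is linked to lay within 1.5-fold, as did 97.7% of all genes at the minimum. Of 17 listed peroxisome biogenesis genes, Tmem135 included and all at the minimum, 8 lay above 0, with a median of -0.012, which turned to 0.024 at a minimum FPKM of 5. Tmem135 was the highest of them. Lowest was Pex11g, a peroxisome division factor listed as Pex11c, with 1.94 FPKM in GW3965 and 2.93 in DMSO (-0.42). Of 19 peroxisomal enzymes and transporters, 5 lay above 0, with a median of -0.084. Cat, the catalase, had 191 FPKM in GW3965 and 222 in DMSO (-0.22), and Abcd2, a fatty acid transporter, had 0.957 and 1.83 (-0.53). Of 7 genes of mitochondrial fission and fusion, 5 lay above 0, with a median of 0.072 and a range of -0.057 to 0.17. Dnm1l, the fission GTPase, had 19.99 FPKM in GW3965 and 19.6 in DMSO (0.027).

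**Figure D3:**
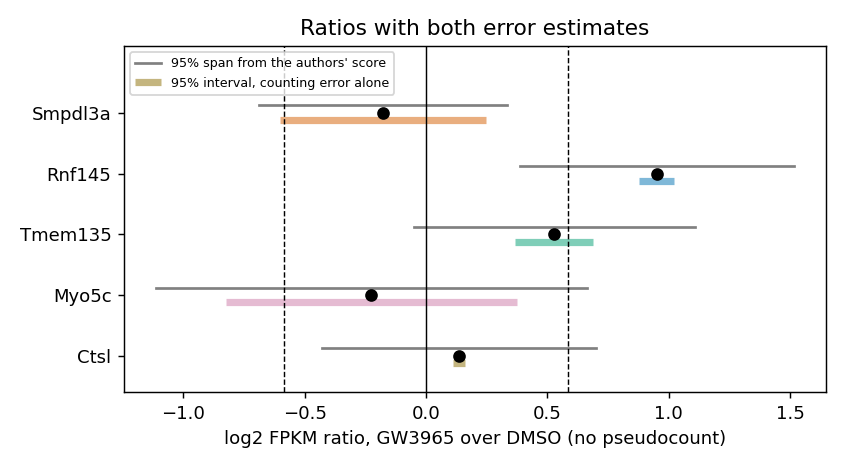
log2 FPKM ratio of GW3965 over DMSO without a pseudocount for the 5 genes (black points). Thin grey lines are 95% spans derived from the authors' score, thick lines the 95% interval from counting alone, and dashed lines mark 1.5-fold. The thin line of Rnf145, 0.39 to 1.51, is the one that does not reach 0.

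Smpdl3a (ENSMUSG00000019872, chromosome 10, 57514141 to 57531636, mm9) encodes a secreted relative of acid sphingomyelinase that cleaves nucleotides. Its response to LXR ligands was described in human macrophages. Its FPKM was 6.002 in GW3965 and 6.79 in DMSO, so the treated library was the lower. The ratio was -0.15, and 16.2% of genes at the minimum lay below it. The log2 FPKM ratio was -0.18 with a counting interval of -0.60 to 0.25, from 100 fragments in GW3965 and 91 in DMSO at the shortest coding transcript of 376 bases. At the longest, of 1961 bases, they would be 851 and 776 fragments. The derived standard error was 0.26, with a span of -0.69 to 0.33, and the authors' deposited table gives p = 0.493 for Smpdl3a. Both intervals hold 0 and end under the 1.5-fold line of 0.58 on the upper side. On the lower side both reach past 1.5-fold. For the counting interval these statements hold at the shortest transcript alone. At the longest it would be narrower, and it was not computed there.

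Among the macrophage markers named beside Smpdl3a, Cd68 had 93.9 FPKM in GW3965 and 74.9 in DMSO (0.32), Lyz2 had 9.10 and 11.5 (-0.31), and Emr1 had 1.12 and 1.34 (-0.14). Of the 12 markers at the minimum 4 lay above 0, with a median of -0.12, a range of -0.35 to 0.32, and 0 past 1.5-fold. Of the 17 in the table none was at 0 in both libraries. The part of such cells in the level of Smpdl3a was not tested.

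The enzyme relatives of Smpdl3a lay close to their DMSO levels. Smpd1, acid sphingomyelinase itself, had 18.1 FPKM in GW3965 and 18.2 in DMSO (-0.0069). Smpdl3b, the nearest relative, had 1.053 in GW3965 and 1.18 in DMSO (-0.087). Of 17 listed genes of sphingomyelin and ceramide turnover 16 reached the minimum, 0 passed 1.5-fold in either direction and 8 lay above 0, with a median of -0.0010 (0.0032 with both libraries scaled to 1 sum). The highest was Sgms1, a sphingomyelin synthase, with 14.4 in GW3965 and 11.6 in DMSO (0.29). The lowest was Smpd5, listed as Gm10345, with 1.36 in GW3965 and 1.85 in DMSO (-0.27).

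Smpdl3a protein has also been reported to break down cyclic GMP-AMP, the messenger that activates STING. Of 12 listed genes of this signal and of extracellular nucleotide breakdown 11 were in the table and 10 at the minimum. Of these 0 were at least 1.5-fold higher and 1 was lower, beside 1.02% and 1.33% of all genes at the minimum. Their median was -0.11, which turned to 0.032 at a minimum FPKM of 5. The lower gene was Entpd8, a nucleotidase of the canalicular membrane, with 0.482 FPKM in GW3965 and 1.23 in DMSO (-0.59). Tmem173, which encodes STING, had 5.76 in GW3965 and 5.25 in DMSO (0.11). Enpp1, another enzyme that cleaves cyclic GMP-AMP, had 5.26 in GW3965 and 5.76 in DMSO (-0.11).

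Ctsl (ENSMUSG00000021477, chromosome 13, 64464522 to 64471614, mm9) encodes cathepsin L, a cysteine protease of lysosomes. Its FPKM was 936 in GW3965 and 852 in DMSO, a ratio of 0.14 with or without the pseudocount, and 81.4% of genes lay below it. Its read numbers are high, 30837 fragments in GW3965 and 22587 in DMSO at the shortest coding transcript, and the counting interval was 0.11 to 0.16. The derived standard error was 0.29, with a span of -0.43 to 0.70, and the authors' deposited table gives p = 0.637 for Ctsl. Depth is therefore no limit for Ctsl, while the wider error holds 0.

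Some reads of Ctsl may belong to another gene. Of the 25-base words of its GENCODE transcripts, 29.7% also occur in transcripts of other genes, mostly in the antisense gene Gm47123, which overlaps it. Outside overlapping genes the share was 3.83%. For Smpdl3a the share with any other gene was 0%, for Rnf145 0.451%, for Myo5c 0.453% and for Tmem135 1.05%. The labels name a TruSeq RNA kit and no strand setting, so reads from Ctsl and its antisense partner cannot be told apart.

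Of 22 listed cathepsins 11 reached the minimum and 7 of these lay above 0, with a median of 0.063. None of the 11 was past 1.5-fold, which is near the share of 97.7% within it over all genes. Ctsd, the aspartic protease cathepsin D, had 727 FPKM in GW3965 and 667 in DMSO (0.12). Ctsb had 243 in GW3965 and 228 in DMSO (0.091), and Ctss, the cathepsin of antigen-presenting cells, had 8.75 and 8.42 (0.050). The widest were Ctsw, with 2.39 in GW3965 and 1.65 in DMSO (0.36), and Ctsf, with 4.79 and 6.22 (-0.32). The 8 listed at 0 in both libraries were Ctsj, Ctsm, Ctsq, Ctsr, Cts3, Cts6, Cts7 and Cts8, relatives of Ctsl that rodents express in placenta.

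Of 7 cystatins, which inhibit cysteine cathepsins, 2 reached the minimum, Cstb with 746 FPKM in GW3965 and 589 in DMSO (0.34) and Cst3 with 224 and 243 (-0.12). Of 25 lysosomal genes, all at the minimum, 0 passed 1.5-fold and 17 lay above 0, with a median of 0.031. The highest was Gla, a galactosidase, at 0.32. The lowest was Tfeb, the regulator of lysosomal genes listed as Tcfeb, at -0.31 with 3.24 in GW3965 and 4.26 in DMSO.

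Myo5c (ENSMUSG00000033590, chromosome 9, 75079821 to 75153258, mm9) encodes a class V myosin known from glandular epithelia. Its FPKM was 0.0987 in GW3965 and 0.115 in DMSO, under the minimum in both libraries. These levels stand for about 51 fragments in GW3965 and 48 in DMSO over its coding transcript of 6727 bases. The log2 FPKM ratio was -0.23, with a counting interval of -0.82 to 0.37 and a derived standard error of 0.45, with a span of -1.11 to 0.66. That span reaches past 1.5-fold in both directions, and the counting interval in the lower one.

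The class V relatives of Myo5c were more abundant. Myo5b, which carries recycling endosomes to the canalicular side of hepatocytes, had 13.9 FPKM in GW3965 and 12.03 in DMSO (0.20). Myo5a, the myosin of melanosomes and neurons, had 3.83 in GW3965 and 2.87 in DMSO (0.32). Of 23 listed class V myosins and secretory Rab partners 17 reached the minimum, 0 passed 1.5-fold and 14 lay above 0, with a median of 0.10. Rab27b, a Rab of secretory granules, had 0.0370 in GW3965 and 0.0252 in DMSO. Rab3d, another of that kind, had 4.86 in GW3965 and 6.15 in DMSO (-0.29). Rab11a, of recycling endosomes, had 295 and 276 (0.098), in GW3965 and DMSO.

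**Figure D4:**
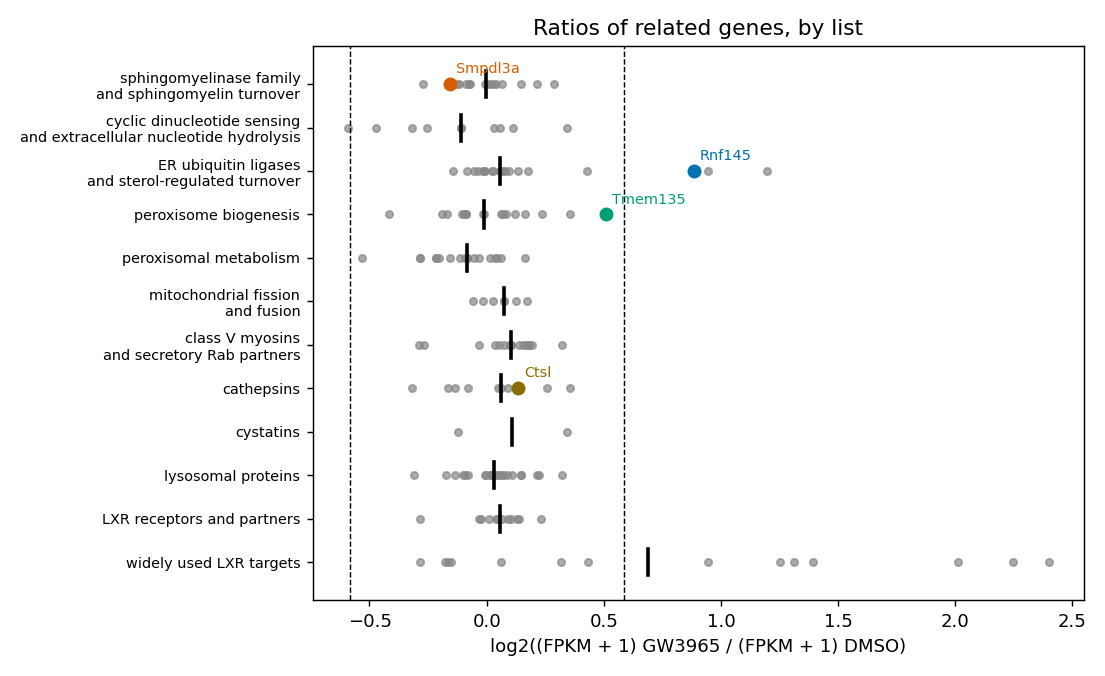
log2 ratio of GW3965 to DMSO, with 1 added to each FPKM, of the genes at the minimum in each list. Grey points are single genes, coloured points are members of the 5, black bars are list medians and dashed lines mark 1.5-fold. Rnf145 at 0.88 lies right of its list median of 0.058, Tmem135 at 0.51 is the right end of its list, and the medians of the other lists drawn lie between -0.11 and 0.11, apart from that of the widely used LXR targets at 0.69.

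The receptors themselves were present. Nr1h3, which encodes LXRα, had 16.3 FPKM in GW3965 and 20.04 in DMSO (-0.29), Nr1h2, for LXRβ, had 45.3 and 44.0 (0.041), and Rxra had 23.7 and 21.96 (0.10), in GW3965 and DMSO. Of 13 receptors and partners 12 reached the minimum and 0 passed 1.5-fold, with a median of 0.056. Of 17 widely used LXR targets 14 reached the minimum. Of these 7 were at least 1.5-fold higher and 0 lower, beside 1.02% and 1.33% of all genes at the minimum. Above 0 lay 10 of the 14, and their median was 0.69 over all 14. That median was 0.39 with a pseudocount of 5, 0.43 at a minimum FPKM of 5 and 0.32 with no minimum. The 7 were the sterol exporters Abca1 (2.40) and Abcg1 (2.01), the lipogenic genes Scd1 (2.25), Srebf1 (1.39) and Fasn (1.31), the phospholipid enzyme Lpcat3 (1.25) and Mylip (0.95). Below 0 in the list were Nr1h3 (-0.29), Apoc1 (-0.18), Mlxipl (-0.17) and Apoe (-0.15). That list was drawn up with these data known, so its median supports nothing about the 5 genes. In the order of its ratios Rnf145 would stand between Mylip at 0.95 and Arl4c, a small GTPase with 16.97 FPKM in GW3965 and 12.3 in DMSO, at 0.43. Tmem135 would stand in the same gap.

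Within 250 kb of the 5 genes lay 43 other genes of the table, of which 19 reached the minimum and 16 were at 0 in both libraries. The 19 ratios ran from -0.34 to 0.42. All were within 1.5-fold, as were 97.7% of all genes at the minimum, so the count says nothing particular about these neighbours. Ublcp1, a phosphatase gene 48.46 kb from Rnf145 and the single neighbour at the minimum there, had 17.6 FPKM in GW3965 and 19.5 in DMSO (-0.13). Fzd4, a Wnt receptor whose locus begins 143 bases beyond that of Tmem135, had 7.84 in GW3965 and 6.72 in DMSO (0.19). Myo5a lies 8.32 kb from Myo5c, and the highest neighbour, Mapk6, lies 81.45 kb from it on the other side with 57.5 in GW3965 and 42.9 in DMSO (0.42). The lowest was Slc35d2, a nucleotide sugar carrier near Ctsl, with 8.37 in GW3965 and 10.9 in DMSO (-0.34). Fabp7, 5.88 kb from Smpdl3a, had 2.04 in GW3965 and 1.90 in DMSO (0.067).

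**Figure D5:**
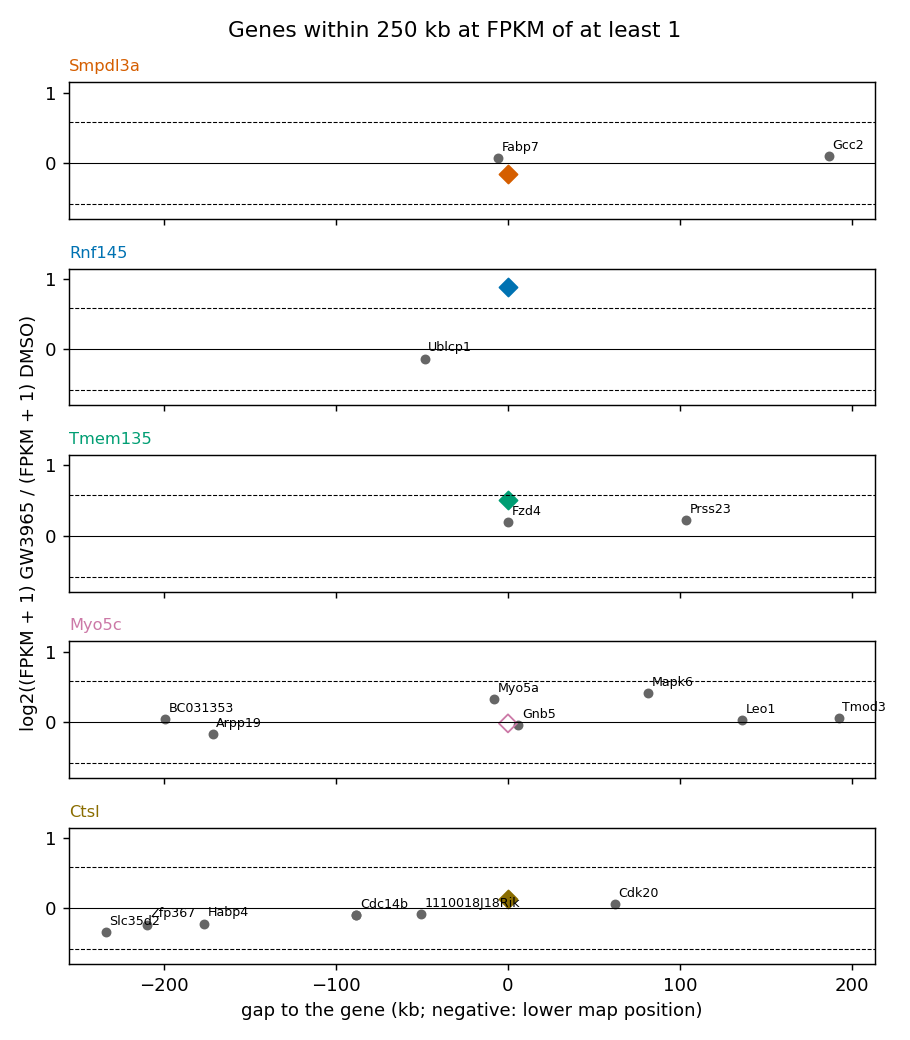
log2 ratio of GW3965 to DMSO, with 1 added to each FPKM, of genes at the minimum within 250 kb of each of the 5 genes, against the gap in kb. Diamonds are the 5 genes, open for Myo5c, which is under the minimum, and dashed lines mark 1.5-fold. All 19 neighbours lie between the dashed lines, and Rnf145 lies outside them.

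Genes most like each of the 5 were sought by the Euclidean distance of log2(FPKM + 1) over the 2 libraries, among protein-coding genes at the minimum. For Smpdl3a they were Trim39 (distance 0.0070) and Atrip (0.0091). For Ctsl they were Npm1 (0.062) and Myl6 (0.078), and for Tmem135 Igsf11 (0.064) and Bzw2 (0.13). For Rnf145 they were Ggct (0.11) and Rrad (0.17), whose ratios were 0.78 and 0.73. Ratios near that of Rnf145 follow from the way these genes were chosen. Myo5c lies under the minimum that the candidates had to meet, and the nearest, Defb36, was 0.94 away.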

How the data were processed

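The 5 members, the gene lists and the naming rule were chosen with earlier results of these data known. CASAVA, Cuffdiff, Cufflinks 2.0.2 and TopHat2 2.0.6 stand in the submitters' processing notes, with the builds mm9 and NCBIM37. The deposited values are FPKM per gene, 1 column per library per the file headers. The deposited score, p-value and q-value are the authors' own, per the file headers, and the sign of the score is opposite to that of the fold. How libraries were scaled is not given in the sources used here.

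Of the 36808 genes, 7 marked for too many fragments, among them Alb, were left out and 73 with a failed test were kept. The standard error of a log2 FPKM ratio is that ratio over the deposited score, both in size. With 1 library per group no p-value was computed. Genes entered lists, neighbours and background at an FPKM of 1 in either library, with a pseudocount of 1. Named genes were the 5 members, their closest relatives, every listed gene past 1.5-fold, up to 2 further genes of each list with the largest ratios, the 2 nearest genes by level, and neighbours within 250 kb. A few listed genes with ordinary ratios were added after their values were seen, and some genes the rule names are not reported here. List symbols were matched through GENCODE M21 and RefSeq names.

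Depth came from 2565 genes under 0.1 FPKM, whose most frequent DMSO to GW3965 ratio, 1.24, was taken to be that of single reads. Relative to it, 65.1% of ratios were quotients of whole numbers up to 10, with a tolerance of 0.1%. Genes with 1 annotated transcript, shortened by 165 bases, gave the absolute scale. Fragment numbers are estimates, and the 95% intervals (Clopper-Pearson) cover counting error only. The table's starts were read as 0-based and raised by 1: 58.5% of single-gene loci then have their GENCODE length, against 1.53% otherwise. GENCODE and RefSeq are on GRCm38, so mm9 positions are those of the table alone. Software was matplotlib 3.10.9, scipy 1.17.1, pandas 2.3.3, numpy 2.4.6 and Python 3.11.15.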

Additional observations from a re-analysis of the deposited data

How the results depend on the processing

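Alternatives were pseudocounts of 0.1, 5 and none, centring on the median, scaling to 1 sum, a minimum FPKM of 5 or none, 2-fold in place of 1.5-fold, and fewer DR4 mismatches. Each of the 5 ratios kept its sign when centred and when scaled to 1 sum. Centring took 0.01 from every ratio and the scaling factor was 1.0, so both could hardly turn a sign. An equal pseudocount in both libraries cannot turn a sign, so those runs say nothing about it. With a pseudocount of 5 the ratio of Rnf145 was 0.70. That of Myo5c was -0.12 with a pseudocount of 0.1 and -0.23 with none, and pseudocounts act by construction on low genes. At 2-fold 0 members were higher. With p at most 0.05, 1 member passed in the authors' deposited table, against 0 called. Of the other 149 listed pathway genes at the minimum 2 were higher and 1 lower, near the 1.02% and 1.33% over all genes. The list of widely used LXR targets, with 7 of 14 higher, was not added to that count. The 2 sets are not separate, since Mylip, 1 of those 7, is also in the ligase list. With Insig1 it makes up the 2 higher pathway genes. The higher count was 1 with a pseudocount of 5, at a minimum FPKM of 5 and at 2-fold. The lower count was 3 with a pseudocount of 0.1 and 0 with a pseudocount of 5, at a minimum of 5 and at 2-fold. With up to 2 DR4 mismatches 0 windows of the members matched, beside 3.02% of all windows. The Abca1, Fasn and Srebf1 sequences shown above have 3 mismatches each, so that search misses them too. The background lower share was 0.781% among protein-coding genes. The cause was not tested for changes with none named. No paired analysis was possible because GW3965 and DMSO had 1 library each. Low depth limits Myo5c and, if its shortest transcript is the one expressed, Smpdl3a.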
